A study of Mus musculus with 3 samples.

Results

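The nuclear genes of oxidative phosphorylation encode most subunits of the 5 enzyme complexes of the inner mitochondrial membrane. They were taken here as every array probe set annotated to a single gene whose symbol belongs to the Ndufa, Ndufb, Ndufc, Ndufs, Ndufv, Uqcr, Sdha to Sdhd, Cox4 to Cox8 or Atp5 families, with probe sets averaged per gene. This gave 82 genes from 107 probe sets, out of 19938 genes measured. The rule uses symbols alone, although the set was proposed with earlier results of these data known. There were 36 genes of complex I, 4 of complex II, 8 of complex III, 17 of complex IV and 17 of complex V by symbol.

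Expression was measured in CT26, a mouse colon carcinoma cell line, with 1 column of log2 values for each of 3 groups. The control group (miR-Ctrl, here Ctrl) expressed a control microRNA, and the others expressed the miR-17~92 microRNA cluster at medium (miR-17~92Med, Med) or high levels (miR-17~92Hi, Hi). All 3 had been transfected with a PIG vector, put through puromycin selection and a GFP sort, and expanded from single cells, and 100 ng of RNA was labelled for an Affymetrix array. The design text names 3 subclones per group, and no source used here says whether a column is 1 subclone, a pool or a mean, so each group is 1 sample with no SD, SE or p-value, and every difference below lacks a replicate check.

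The Ctrl column stood apart from the other columns before any gene group was considered. Across probe sets its correlation was r = 0.787 with Med and 0.795 with Hi, while Med and Hi correlated at 0.992 (probe sets are not replicates). Its interquartile range was 2.42, against 3.12 in Med and 3.08 in Hi. Olfactory and vomeronasal receptor genes, which serve as a gauge of background (1190 genes), had medians of 4.92 in Ctrl and 4.51 in both others. Their 95th percentile was 6.87 in Ctrl, 6.17 in Med and 6.20 in Hi. Ctrl values under 6.87, here and below, lie within that background range, and fold differences from them are of uncertain size. Both comparisons with Ctrl use that same column, so what belongs to the cluster and what belongs to the Ctrl column cannot be told apart. The comparison of Hi with Med is the one without the Ctrl column. There too, the level of the cluster and differences between subclones cannot be told apart. Of 9 colon epithelial markers, 2 (Krt8 and Krt18) passed the expression filter, a mean over the columns at or above the median gene (7.13), while Epcam, Cdh1, Cdx2, Vil1, Krt20, Lgr5 and Muc2 did not. Of 4 immune and 3 endothelial markers measured, 0 passed it. Krt8 was lower than Ctrl in Hi (-1.61) and Krt18 higher (4.31). Of 7 mesenchymal markers 5 passed, with Vim (1.69) and Pdgfra (3.01) higher in Hi and Acta2 (-3.24), Col1a1 (-1.19) and Col1a2 (-1.23) lower.

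Oxidative phosphorylation turns the energy of NADH and succinate into ATP. Complex I (NADH dehydrogenase) and complex II (succinate dehydrogenase) feed electrons to ubiquinone, complex III (cytochrome bc1) passes them to cytochrome c, and complex IV (cytochrome c oxidase) passes them to oxygen. Complexes I, III and IV pump protons, and complex V (ATP synthase) makes ATP as protons flow back. Several subunits are made inside the mitochondrion from its own DNA, and the rest, described here, are made in the cytosol and imported. In tumour cells the pathway supplies ATP and also the electron acceptor capacity needed to make aspartate and pyrimidines.

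Most of these genes were higher in Med and Hi than in Ctrl, and Med and Hi differed little from each other. Of the 82 genes, 76 passed the expression filter. In Med against Ctrl, 49 of the 76 (64.5%) were at least 2-fold higher, a log2 difference of 1 or more, where 34.9% of all 9969 genes past the filter were. In Hi against Ctrl, 48 (63.2%) were 2-fold higher, where 33.5% of all genes were. At least 2-fold lower were 2 members in each comparison (2.63%), against 8.7% of all genes in Med and 8.4% in Hi. The median log2 difference of the members was 1.54 in Med and 1.52 in Hi, beside 0.42 and 0.39 over all genes. The filter uses the mean of all 3 columns, so genes low in Ctrl can pass through Med and Hi. Without it, 49 and 48 of 82 members were 2-fold higher and 3 lower, where 18.3% (Med) and 17.5% (Hi) of all 19938 genes were higher and 16.3% and 15.4% lower.

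These sizes depend on how the columns are scaled. With quantile normalization the members' medians were 0.77 in Med and 0.85 in Hi, with 34 and 36 genes 2-fold higher and 5 lower in each. Of all genes, 25.6% and 25.2% were then higher, and 17.6% and 16.6% lower. Another setting, chosen after the data were seen, centred columns on the median of the genes past the filter. The medians were then 0.95 and 0.98, with 37 and 38 members higher and 3 lower in each. Of all genes, 22.9% (Med) and 22.4% (Hi) were higher under it, and 17.5% and 16.4% lower. Members were mostly among genes of high level in Hi: 52 of the 76 lay in the highest of 3 equal groups of genes by Hi level, where 66.7% of all genes were 2-fold higher than in Ctrl and 43 of the 52 members were. In the middle group 5 of 16 members were 2-fold higher (28.1% of all genes), and in the lowest group 0 of 8 (5.597%). The Hi level is itself part of the difference, so a rise of these shares from group to group is partly built into the split. Split by the level in Ctrl instead, members in the highest group (35 genes) had a median difference of 1.05 in Hi, beside 0.05 for all genes there. In the middle group the medians were 1.75 and 0.10, with 15 of 20 members 2-fold higher (24.3% of all genes). In the lowest group they were 2.92 and 1.22, with 15 of 21 members 2-fold higher, where 55.9% of all genes were too.

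**Figure D1:**
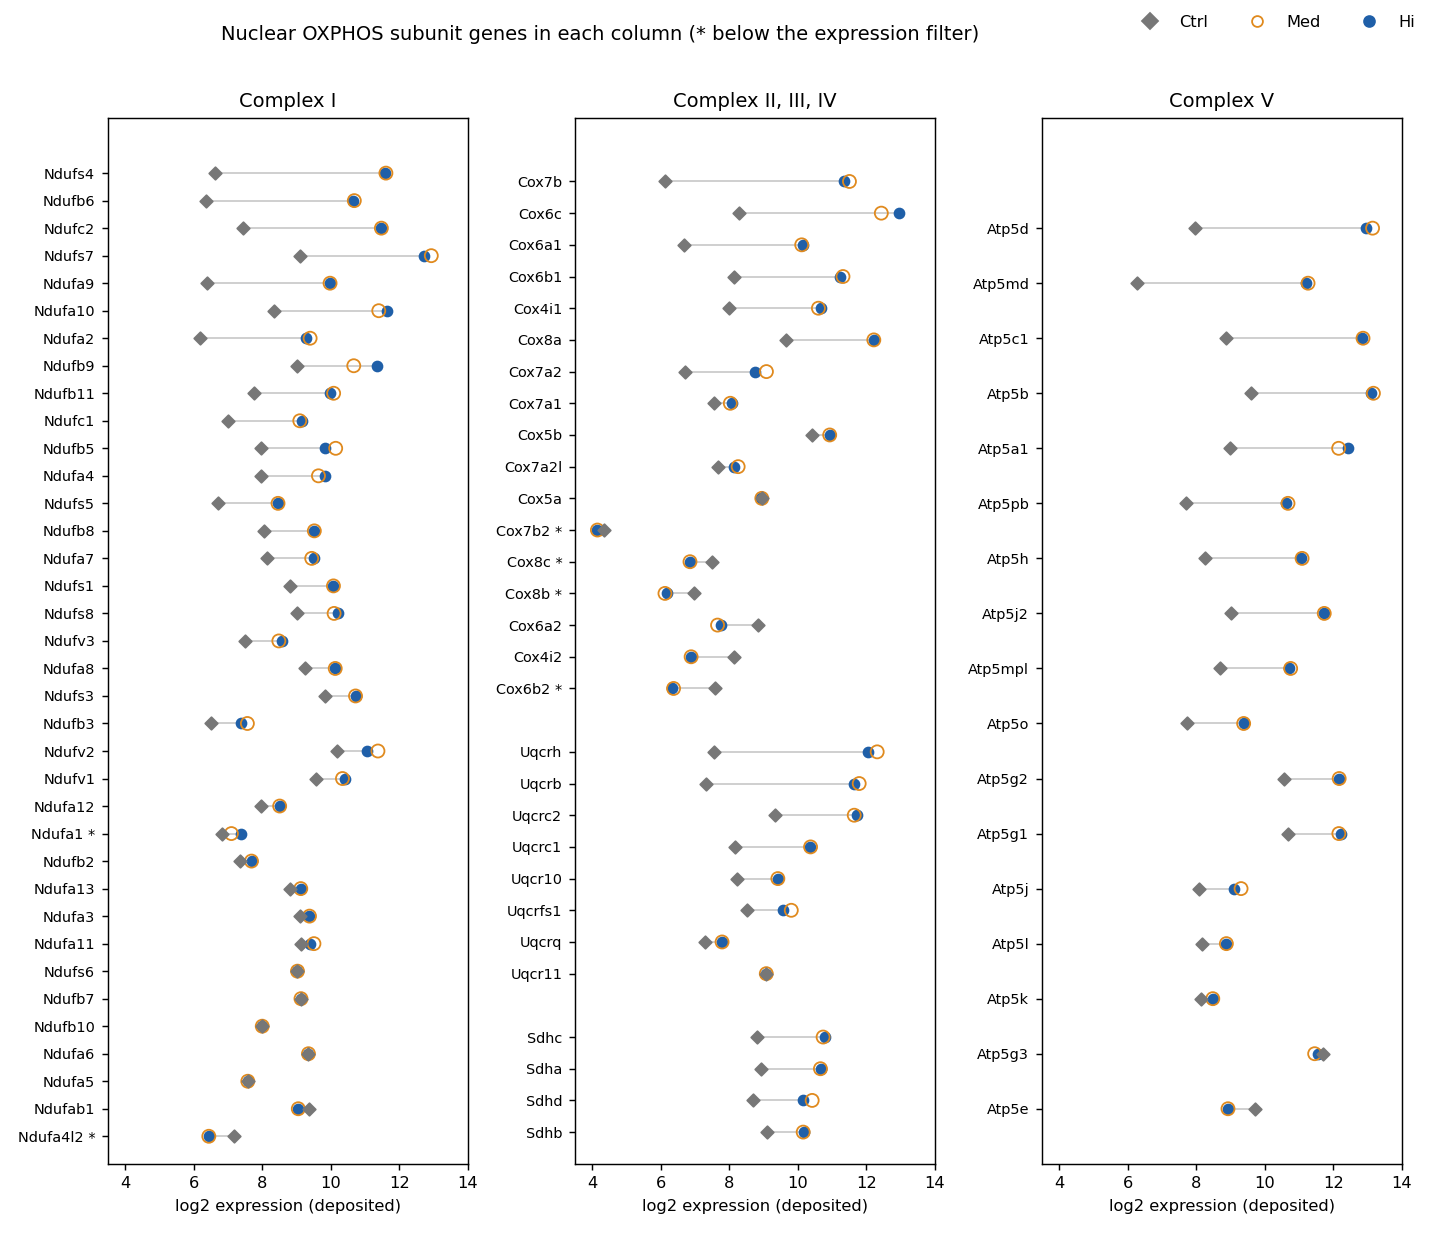
Level of each of the 82 genes (rows, ordered within a complex by the difference of Hi from Ctrl) in the Ctrl (diamond), Med (open circle) and Hi (filled circle) columns, as deposited log2 expression on the horizontal axis, with 1 value per column and no error bars. Med and Hi nearly coincide in most rows, and genes marked * were below the expression filter.

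Promoters of these genes are known to hold sites for NRF1, ETS-family factors such as GABPA, YY1 and ERRalpha, and a short core of each was searched in windows from 250 bases before to 50 after each annotated start (RefSeq, GRCm38.p6), on both strands. Of the 82 genes, 67 were in the table, with 72 windows. The NRF1 core CGCATGCGC was in 11.1% of member windows and 1.75% of all 32851 windows, the ETS core CCGGAAG in 23.6% and 8.86%, the YY1 core AAGATGGCG in 9.72% and 1.40%, and the ERRalpha core TCAAGGTCA in 2.78% and 0.42%. Among windows of protein-coding genes the shares were 2.35% for NRF1, 11.6% for ETS, 1.83% for YY1 and 0.33% for ERRalpha. At least 1 core was found in 28 member genes. Their median difference of Hi from Ctrl was 1.53 (18 of 28 at least 2-fold higher), and it was 1.20 in the 35 members past the filter that had none (20 of 35). The NRF1 core stood in 8 genes, whose differences of Hi from Ctrl spanned 0.00 to 3.47. A match is a stretch of letters in the reference genome, not a measured site.

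The following 200 bases before the start are shown for 4 genes that hold such cores and whose expression ran from unequal to nearly equal between columns, with matched letters in capitals (a core on the opposite strand appears as its reverse complement). Cox6a1, at chr5:115348959-115349158 (GRCm38.p6, minus strand), holds the NRF1 core in both orientations, which overlap by all but 1 base, and an ETS core. Atp5j, at chr16:84834977-84835176 (GRCm38.p6, minus strand), holds a YY1 and an ETS core. Uqcr11, at chr10:80406822-80407021 (GRCm38.p6, minus strand), holds an ETS core and a NRF1 core that runs past the start and is not in capitals, and Atp5g3, at chr2:73911327-73911526 (GRCm38.p6, minus strand), an ERRalpha core.
Cox6a1: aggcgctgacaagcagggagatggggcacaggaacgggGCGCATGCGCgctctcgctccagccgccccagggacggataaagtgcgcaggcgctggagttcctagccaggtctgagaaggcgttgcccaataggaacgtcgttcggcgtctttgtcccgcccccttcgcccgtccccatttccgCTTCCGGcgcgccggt
Atp5j: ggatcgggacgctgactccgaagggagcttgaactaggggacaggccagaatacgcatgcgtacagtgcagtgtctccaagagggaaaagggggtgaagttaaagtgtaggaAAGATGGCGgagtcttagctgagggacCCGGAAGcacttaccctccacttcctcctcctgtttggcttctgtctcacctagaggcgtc
Uqcr11: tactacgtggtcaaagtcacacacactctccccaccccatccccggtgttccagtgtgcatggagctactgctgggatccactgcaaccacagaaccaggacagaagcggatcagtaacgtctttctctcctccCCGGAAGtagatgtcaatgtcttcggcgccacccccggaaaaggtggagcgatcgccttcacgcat
Atp5g3: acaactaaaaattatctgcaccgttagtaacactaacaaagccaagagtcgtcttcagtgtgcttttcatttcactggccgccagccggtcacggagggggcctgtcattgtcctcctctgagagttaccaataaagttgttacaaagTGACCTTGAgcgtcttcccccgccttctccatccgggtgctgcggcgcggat
Cox6a1 measured 6.67 (Ctrl), 10.11 (Med) and 10.14 (Hi), and Atp5j at 8.07, 9.30 and 9.11. The Ctrl value of Cox6a1 lay under the receptor 95th percentile (6.87). Uqcr11 was at 9.08 in every column, and Atp5g3 at 11.69, 11.45 and 11.54. These 4 genes, chosen by their values, differed from Ctrl in Hi by -0.14 (Atp5g3) to 3.47 (Cox6a1). Uqcr11 held identical values in Ctrl and Hi, which is not read as equal expression.

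Beside the counts of each complex and list below stand the shares of all genes past the filter. These were 34.9% (Med) and 33.5% (Hi) 2-fold higher, and 8.7% and 8.4% lower. In complex I, 34 of 36 genes passed the filter and 19 were 2-fold higher in Med and 18 in Hi, with none 2-fold lower. The median difference was 1.15 in both, or 0.52 in Med and 0.59 in Hi with quantile normalization. The catalytic core, which carries electrons from NADH through flavin and iron-sulfur centres to ubiquinone, is described here by 6 nuclear genes. All 6 were higher than in Ctrl in the deposited values, 4 of them 2-fold in Med and 3 in Hi.

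Ndufs7, which holds the last iron-sulfur cluster before ubiquinone, was furthest from Ctrl, at 9.10 (Ctrl), 12.93 (Med) and 12.72 (Hi) (12.3-fold in Hi). Ndufs1, which carries clusters of the electron input arm, was at 8.80, 10.08 and 10.08. Ndufs8, another cluster protein, was at 9.002, 10.10 and 10.21. Ndufv2, a flavin-arm subunit, was at 10.17, 11.38 and 11.05. The differences of Ndufs1, Ndufs8 and Ndufv2 were all under 2-fold with quantile normalization, under which Ndufv2 lay below Ctrl (-0.060 in Med, -0.33 in Hi). Ndufs3, at 9.84, 10.72 and 10.72, and Ndufv1, which binds NADH and flavin, at 9.56, 10.34 and 10.42, stayed under 2-fold in the deposited values and also lay below Ctrl with quantile normalization (-0.25 and -0.21 in Hi). Within the core, Ndufs7 thus differed from Ctrl by 3.62 in Hi and the other 5 genes by 0.87 to 1.28.

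Accessory genes of complex I stabilise the enzyme and build its membrane arm. Ndufa4, counted above by its symbol, is a complex IV subunit and is left out here. Of the other 27 past the filter, 14 were 2-fold higher in each column and 5 held the same value in all 3 columns. Ndufs4, an assembly-critical subunit whose loss causes Leigh syndrome, measured 6.62 (Ctrl), 11.61 (Med) and 11.59 (Hi), a 31.3-fold difference in Hi. The membrane-arm subunit Ndufb6 was at 6.35, 10.69 and 10.66, and Ndufc2 at 7.43, 11.48 and 11.48. Each of these 3 was level between Med and Hi and far above Ctrl. The Ctrl values of Ndufs4 and Ndufb6 lay under the receptor 95th percentile (6.87), so the sizes of their differences are uncertain.

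Ndufa9, which sits near the ubiquinone site, measured 6.40 in Ctrl against 9.98 elsewhere, and Ndufa10 at 8.36, 11.40 and 11.64. The Ctrl value of Ndufa9 was also under the receptor 95th percentile (6.87). Ndufb9, a membrane-arm subunit, was at 9.005, 10.67 and 11.36 and is one of the few genes here in which Hi stood clear of Med. At the other end, Ndufs6 (9.03), Ndufb7 (9.13), Ndufb10 (8.003), Ndufa5 (7.58) and Ndufa6 (9.35) had identical values in Ctrl, Med and Hi. Identical values in all columns were held by 1046 of all genes past the filter (10.5%) and 5 of the 76 members (6.58%). The same value can also recur between genes, as 9.38035 in Med and Hi for both Atp5o and Ndufa3. Such identity is not read here as a measurement of equal expression, and its origin was not tested. The acyl carrier protein Ndufab1, which also serves mitochondrial fatty acid synthesis, was slightly lower than Ctrl (9.35, 9.05 and 9.05). Level genes lie below Ctrl once columns are rescaled, Ndufb7 by -0.88 in Hi with quantile normalization, and above it when columns are centred on all probe sets (0.29). Subunit genes of this one enzyme thus had differences from Ctrl between -0.30 and 4.97 in Hi.

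Complex II is the only one of the 5 with no mitochondrially encoded subunit and is also an enzyme of the citrate cycle. All 4 genes were 2-fold higher in both columns. The flavoprotein Sdha measured 8.92 (Ctrl), 10.66 (Med) and 10.68 (Hi), and the iron-sulfur subunit Sdhb at 9.11, 10.16 and 10.18. The membrane anchors Sdhc and Sdhd were at 8.80, 10.74 and 10.80, and at 8.70, 10.42 and 10.15. Their differences from Ctrl in Hi lay between 1.07 and 1.99. With quantile normalization all 4 were under 2-fold in Med (Sdhc 0.99 the highest) and 3 in Hi (Sdha 0.80, Sdhb 0.08, Sdhd 0.61).

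In complex III, 6 of 8 genes were 2-fold higher in both columns, with medians of 1.75 in Med and 1.70 in Hi, or 0.84 and 0.92 with quantile normalization. The hinge protein Uqcrh, which helps cytochrome c dock, measured 7.56 (Ctrl), 12.31 (Med) and 12.04 (Hi). Uqcrb, a ubiquinone-binding subunit, was at 7.31, 11.79 and 11.63, and its 3 probe sets differed among themselves, with differences of Hi from Ctrl from 2.60 to 5.48. The core proteins Uqcrc1 (8.17, 10.37 and 10.36) and Uqcrc2 (9.34, 11.65 and 11.73) were higher by more than 2 log2 units, Uqcrc2 by 1.14 in Med and 1.26 in Hi with quantile normalization. The Rieske iron-sulfur protein Uqcrfs1 was nearer to Ctrl, at 8.51, 9.81 and 9.56, and under 2-fold with quantile normalization (0.51 in Med, 0.32 in Hi). The small subunits Uqcrq (7.30, 7.79 and 7.79) and Uqcr11 were under 2-fold. In both of its probe sets Uqcr11 held identical values in Ctrl and Hi, which is not read as equal expression.

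Complex IV held the gene furthest above Ctrl and also the only members 2-fold below it. Of its 17 genes by symbol, 13 passed the filter, with 7 at least 2-fold above Ctrl and 2 below it in each column. Cox7b, a small subunit needed for assembly, measured 6.13 (Ctrl), 11.51 (Med) and 11.34 (Hi), a 37.0-fold difference in Hi. That Ctrl value lay under the receptor 95th percentile (6.87), so the size of this fold is uncertain. Cox6c was at 8.30, 12.44 and 12.96, and Cox6b1, which faces cytochrome c, at 8.14, 11.32 and 11.23. Cox5a, which binds a thyroid hormone metabolite, was level at 8.95, 8.95 and 8.93, and Cox5b at 10.42, 10.93 and 10.93. Both probe sets of Cox7b were far above Ctrl (4.25 and 6.16 in Hi), as were both of Cox6c (4.11 and 5.22).

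Several complex IV subunits come as a widely expressed gene and a counterpart restricted to heart and muscle, lung or testis, and these parted in direction. Cox4i1 measured 7.98 (Ctrl), 10.60 (Med) and 10.66 (Hi), while its lung and hypoxia counterpart Cox4i2 was at 8.14, 6.89 and 6.89. Against Cox6a1 (given above with its promoter), the muscle form Cox6a2 was at 8.85, 7.66 and 7.76. Cox6b2, the testis form beside Cox6b1, was at 7.59, 6.38 and 6.32, below the filter. The widely expressed form was higher than Ctrl and the restricted one lower in each of these pairs.

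Cox8a measured 9.66 in Ctrl against 12.22 elsewhere, while the muscle form Cox8b was at 6.96, 6.13 and 6.20 and the testis form Cox8c at 7.51, 6.86 and 6.86. Ndufa4, named for complex I but held in complex IV, was at 7.96, 9.64 and 9.82, and the hypoxia-induced Ndufa4l2 at 7.17, 6.44 and 6.46. The testis form Cox7b2 was at 4.36, 4.16 and 4.16. Cox7a was the exception: Cox7a2 was at 6.70, 9.08 and 8.75, and its muscle counterpart Cox7a1, at 7.56, 8.03 and 8.08, was also higher than Ctrl, though not with columns centred on genes past the filter (-0.12 in Med). With columns centred on all probe sets, Cox7b2 was above Ctrl too (0.10 in Med). The related Cox7a2l, which joins complexes III and IV into supercomplexes and is no subunit of the single enzyme, was at 7.68, 8.26 and 8.14, with 1 of its 2 probe sets level (-0.08 in Hi).

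Of the 8 restricted forms 5 were below the filter. Over all 19938 genes without a filter the median difference was itself below 0 (-0.20 in Med, -0.19 in Hi), and 48.4% and 48.1% of genes were lower by 0.25 or more, so a lower value was common among all genes. Of the 3 restricted forms past the filter, those 2-fold lower were Cox4i2 and Cox6a2. With columns centred on the median of all probe sets, Cox4i2 (-0.95 in Med, -0.96 in Hi), Cox6a2 (-0.89 and -0.80) and Cox6b2 (-0.92 and -0.99) were each under 2-fold. Markers of skeletal muscle and heart were lower than Ctrl in the same columns: all 5 measured (Myh7, Acta1, Ckm and, below the filter, Myh6 and Actn2) with differences of -0.87 to -1.71 in Hi and mean levels of 8.15 (Ctrl), 6.82 (Med) and 6.88 (Hi). Most markers of the other lists were lower too: 3 of 3 endothelial markers (-0.94 to -1.08 in Hi) and 4 of 4 immune markers (-0.41 to -1.23). So were 8 of 9 colon epithelial markers (range of all 9 -1.61 to 4.31, Krt18 the highest). Of 7 mesenchymal markers 5 were lower, with a range of -3.24 to 3.01. The median receptor gene at background differed by -0.39 (Med) and -0.38 (Hi). The part of either in these values was not tested.

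**Figure D2:**
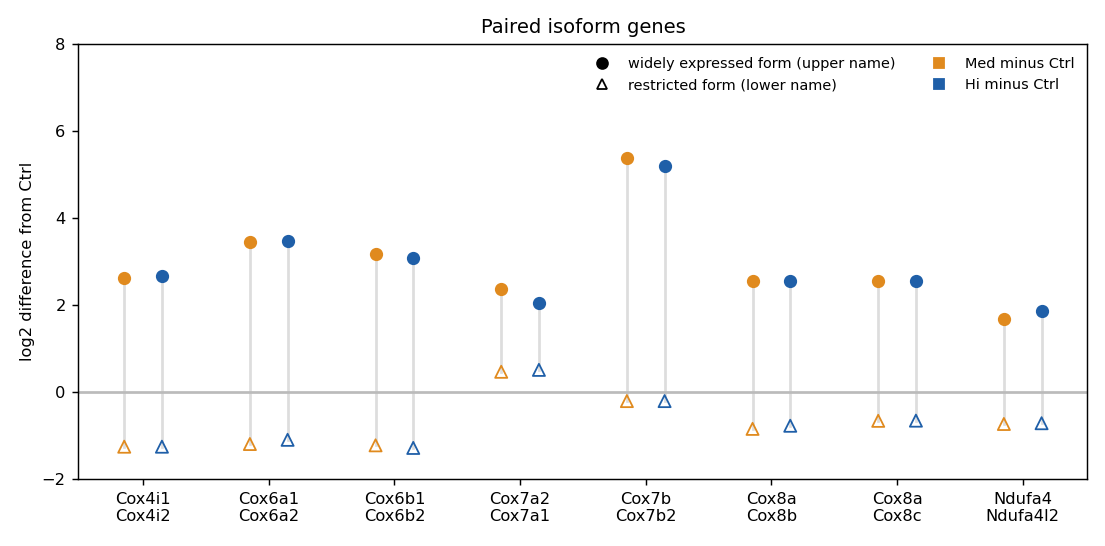
Log2 difference from Ctrl (vertical axis) of Med and Hi for paired isoform genes, the widely expressed form as a filled circle and the restricted form as an open triangle, with 1 value each and no error bars. In 7 of 8 pairs the restricted form, 5 of them below the filter, lies below 0 and its partner above, and Cox7a1 is the exception; with columns centred on all probe sets Cox7b2 also lies above 0.

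In complex V all 17 genes passed the filter, 13 were 2-fold higher in each column and none was 2-fold lower, with medians of 2.06 in Med and 2.01 in Hi. The F1 head, where ATP is made, has alpha, beta, gamma, delta and epsilon subunits. The catalytic beta gene Atp5b measured 9.60 (Ctrl), 13.16 (Med) and 13.09 (Hi), and the alpha gene Atp5a1 at 8.98, 12.15 and 12.42. The gamma shaft gene Atp5c1 was at 8.86, 12.86 and 12.84, and the delta gene Atp5d at 7.96, 13.14 and 12.96 (31.8-fold in Hi). The epsilon gene Atp5e went the other way, at 9.70 in Ctrl and 8.92 in both others. The 4 larger subunits of the head were thus higher by 3.44 to 4.99 in Hi and the smallest lower by 0.77 on the log2 scale. That difference of Atp5e was under 2-fold and came from 1 probe set with identical values in Med and Hi. No rescaled value is given for it.

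The c-ring, the rotor that protons turn, is made from 3 genes that encode one mature protein with different import signals. Atp5g1 measured 10.67 (Ctrl), 12.16 (Med) and 12.23 (Hi), and Atp5g2 at 10.57 and 12.17 in both others, while Atp5g3, given above, was slightly lower than Ctrl. With quantile normalization Atp5g1 and Atp5g2 were under 2-fold (0.21 and 0.28 in Hi) and Atp5g3 was 2-fold lower (-1.36), while centring on all probe sets put Atp5g3 above Ctrl (0.15 in Hi). The order of the 3 by difference from Ctrl, with Atp5g3 lowest, was the same in the deposited and the quantile-normalized values.

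Of the other stalk and membrane subunits, Atp5md, which helps join ATP synthase dimers, was furthest from Ctrl at 6.27, 11.26 and 11.20, and its 3 probe sets all showed it (4.32 to 5.32 in Hi). The mean of Atp5md in Ctrl lay under the receptor 95th percentile (6.87), while its highest probe set there was at 7.95. The peripheral stalk genes Atp5pb (7.70, 10.67 and 10.63), Atp5h (8.27, 11.08 and 11.06) and Atp5o (7.74, 9.38 and 9.38) were also 2-fold higher. The 2 probe sets of Atp5pb disagreed on the size, with 1.11 and 4.73 in Hi. Atp5k was at 8.15, 8.48 and 8.48, and Atp5l, with 6 probe sets between 0.00 and 1.33 in Hi, was under 2-fold as a mean (0.70). Over the 17 members with more than 1 probe set, the spread of Atp5pb was the widest (3.63 between its probe sets) and that of Uqcr11 the narrowest (0.00). Restricted to the 59 members past the filter with 1 probe set, 39 were 2-fold higher in Med and 38 in Hi. Of all 9307 such genes, 34.4% were in Med and 33.0% in Hi.

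Genes outside the enzyme complexes but of the same organelle function were set beside them. Assembly factors, which build the complexes, had 14 of 40 genes past the filter 2-fold higher and 1 lower in Hi, and a median of 0.46. The cytochrome oxidase factor Surf1 (6.33 in Ctrl, 9.63 in Med and 9.68 in Hi), Dmac1 (6.59, 8.83 and 9.18) and Tmem126a (6.84, 9.81 and 9.42) were furthest above Ctrl in Hi. Electron carriers and ubiquinone synthesis genes had 6 of 20 higher, none lower, and a median of 0.00 in Hi. Cytochrome c itself (Cycs) was at 7.62, 9.58 and 9.17 and the complex III subunit cytochrome c1 (Cyc1, which the symbol families leave out) at 9.93, 11.04 and 11.23. Coq5, a ubiquinone methyltransferase, at 7.15, 9.58 and 9.32, Etfdh at 7.34, 9.37 and 9.14, and Sqor at 6.97, 9.06 and 8.55 were the furthest above Ctrl of that list in both columns. The shares of both lists 2-fold higher, 14 of 40 and 6 of 20, lay near the 33.5% of all genes.

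Citrate cycle and pyruvate dehydrogenase genes had 13 of 15 genes 2-fold higher in each column, none lower, with a median of 1.54 in Hi. Of all genes, 34.9% (Med) and 33.5% (Hi) were higher. Examples are Idh3g (8.91 in Ctrl, 11.11 in both others), the E1 beta gene Pdhb (6.34, 8.39 and 8.39) and Dld (7.50, 9.75 and 9.45). Channel, exchange and cristae genes of the mitochondrial membranes had 9 of 11 higher and 1 lower, with a median of 2.12 in Hi. The ATP synthase inhibitor Atpif1 was at 7.87, 12.79 and 12.67, the outer membrane channel Vdac1 at 8.02, 11.95 and 11.95, and the cristae protein Immt at 8.16, 11.002 and 10.81. The exception was the adenine nucleotide carrier Slc25a5, which differed from Ctrl by -1.18 in Med and -1.31 in Hi, while its paralog Slc25a4 differed by 2.06 and 2.21.

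Mitochondrial ribosomal proteins, which translate the mitochondrially encoded subunits, had 37 of 73 genes 2-fold higher and 1 lower in each column, with a median of 1.09. Of all genes, 34.9% (Med) and 33.5% (Hi) were higher, and 8.7% and 8.4% lower. Mrps18c (5.70, 9.49 and 9.26), Mrpl45 (6.21, 9.26 and 9.26) and Mrpl23 (7.49, 10.51 and 10.39) were furthest above Ctrl in both. Of the mitochondrially encoded partners, 2 had single-gene probe sets, the complex IV subunit COX2 at 6.00, 13.40 and 13.31 and the complex I subunit ND3 at 5.07, 12.49 and 12.21. Their differences of 7.31 and 7.14 in Hi exceeded that of every nuclear subunit gene, the largest of which was 5.21. Both Ctrl values lay under the receptor 95th percentile in Ctrl (6.87), so the sizes of these 2 differences are uncertain. Why both were so low in Ctrl was not tested.

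Known regulators of these genes had 5 of 13 members 2-fold higher and 1 lower, with a median of 0.80 in Hi, a share near the 33.5% of all genes. Myc measured 8.48 (Ctrl), 12.21 (Med) and 12.06 (Hi), and the mitochondrial transcription factors Tfb2m and Tfb1m at 6.62, 9.43 and 9.39, and at 7.27, 9.64 and 9.25. Tfam, which packages and transcribes mitochondrial DNA, was at 5.38, 7.22 and 7.19, below the filter. Hif1a, which represses respiration under hypoxia, was at 9.23, 10.91 and 10.91. The coactivator Ppargc1a was at 7.26, 4.95 and 4.95, also below the filter, and the receptor Esrra at 9.53, 8.37 and 8.39. Of the factors whose cores were searched above, Nrf1 (7.89) and the GABP subunit gene Gabpb1 (8.44) held identical values in all columns, Gabpa was at 7.16, 8.36 and 8.36, and Yy1 at 11.50, 11.31 and 11.31. These factors were thus neither all higher nor all lower than Ctrl.

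**Figure D3:**
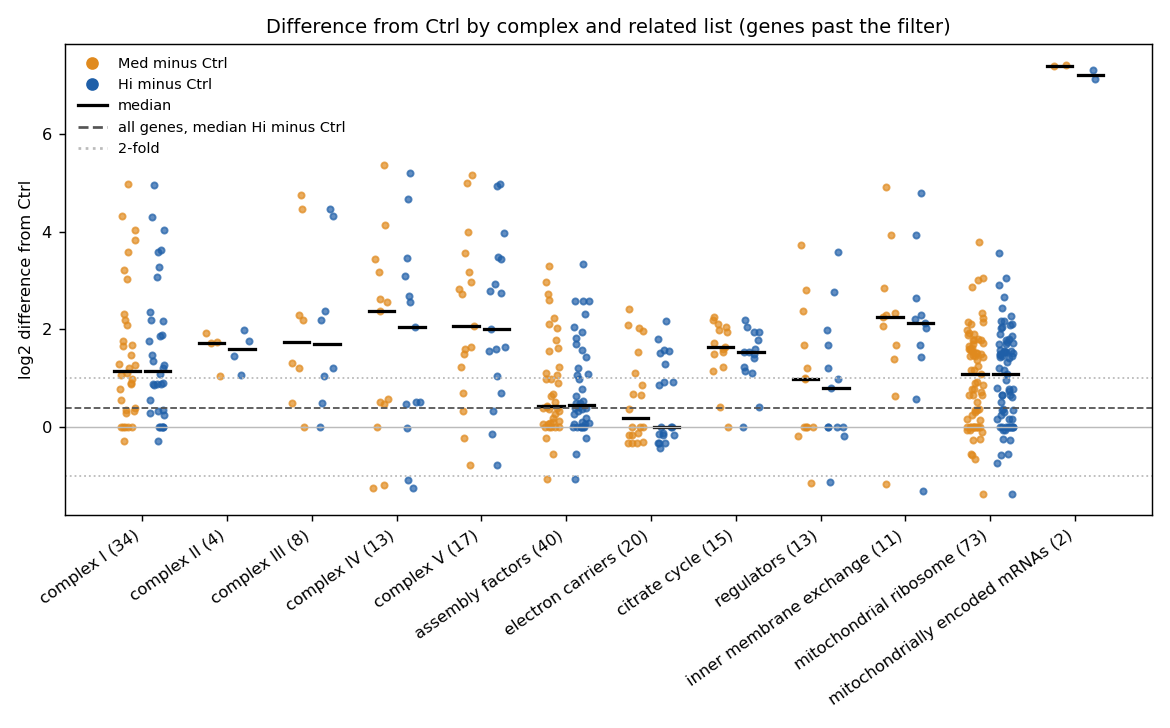
Log2 difference from Ctrl (vertical axis) in Med and Hi for each gene past the filter, by complex and by related list with the number of genes in brackets, where points are genes and black bars are medians. The dashed line is the median Hi minus Ctrl of all genes (0.39), and complex IV is the complex with genes below the lower 2-fold line.

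Hi against Med compares high with medium levels of the cluster, and here the Ctrl column is not in the difference. With 1 column each from cells expanded from single cells, the level of the cluster and differences between subclones cannot be told apart. None of the 76 members was 2-fold higher or lower in Hi than in Med, where 0.682% of all genes were higher and 0.863% lower. The median difference was 0.00, as for all genes. A difference of at least 0.25 on the log2 scale was found for 3 members higher (3.95%) and 6 lower (7.89%), beside 5.64% and 11.9% of all genes. Values were identical in Med and Hi for 26 members (34.2%), beside 45.9% of all genes, and such identity is not read as equal expression. Hi was higher at any size in 23 members (30.3%, all genes 22.8%) and lower in 27 (35.5%, all genes 31.3%), and 54 members (71.1%) were within 0.1, beside 65.9%. Both shares at 0.25 or more lay below those of all genes, and 1 column per group allows no test of that. Background receptor genes differed with an SD over genes of 0.09, and 38 of the 1190 were at least 0.25 apart.

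The members higher in Hi than in Med by 0.25 or more were Ndufb9 (0.69), Cox6c (0.53) and the ATP synthase alpha gene Atp5a1 (0.27). Next in order were Ndufa10 (0.24), Ndufa4 (0.18) and Ndufs8 (0.12). Both probe sets of Cox6c were higher in Hi, by 0.42 and 0.63. The members lower in Hi were Cox7a2 (-0.33), Ndufv2 (-0.33), Ndufb5 (-0.31), Uqcrh (-0.28), Sdhd (-0.27) and Uqcrfs1 (-0.25). The count of lower members was 3 with quantile normalization and 2 when columns were centred on genes past the filter, beside 9.18% and 9.53% of all genes.

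Ndufb9, Cox6c, Cox7a2, Sdhd and Ndufv2, each 0.25 or more apart, lay on chromosomes where many other genes differed in the same direction. Ndufb5, Uqcrh, Uqcrfs1 and Atp5a1, also that far apart, did not. Genes lower in Hi by 0.25 or more were 12.1% on chromosome 3 (Ndufb5), 7.64% on 4 (Uqcrh) and 8.93% on 13 (Uqcrfs1), beside 11.9% of all genes. On chromosome 18 (Atp5a1), 5.04% were higher and 20.2% lower. Ndufb9 and Cox6c are both on chromosome 15, where 26.3% of 415 genes past the filter were higher in Hi by 0.25 or more, beside 5.64% of all genes. Of the 20 genes nearest to Cox6c in gene order (10 on each side), 11 were higher in Hi by at least 0.25 and 1 lower, with a median of 0.33. For Ndufb9 it was 9 higher and 1 lower, with a median of 0.01. The other members on chromosome 15, Atp5g2 and Ndufa6, were identical in Med and Hi.

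On chromosome 9, 33.3% of 550 genes were lower in Hi by 0.25 or more, beside 11.9% of all genes. Cox7a2 and Sdhd are there, and 9 and 10 of their 20 neighbours were lower by that much, while the members Atp5l (0.00), Cox5a (-0.02) and Uqcrc1 (-0.0080) there were level or nearly so. Ndufv2 is on chromosome 17, where 20.9% of 502 genes were lower, and 10 of its 20 neighbours were. On chromosome 10, where 25.7% of genes were lower, 0 of 5 members were lower by 0.25, and on chromosome 6, with 19.6%, 0 of 4. The neighbours of Ndufb5, Uqcrh and Uqcrfs1 had medians of 0.00. Atp5a1 is on chromosome 18 and was higher in Hi while 0 of its 20 neighbours were higher by 0.25 or more. Whether the position of these genes has a part in their values was not tested, and chromosomes were compared after the values had been seen.

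**Figure D4:**
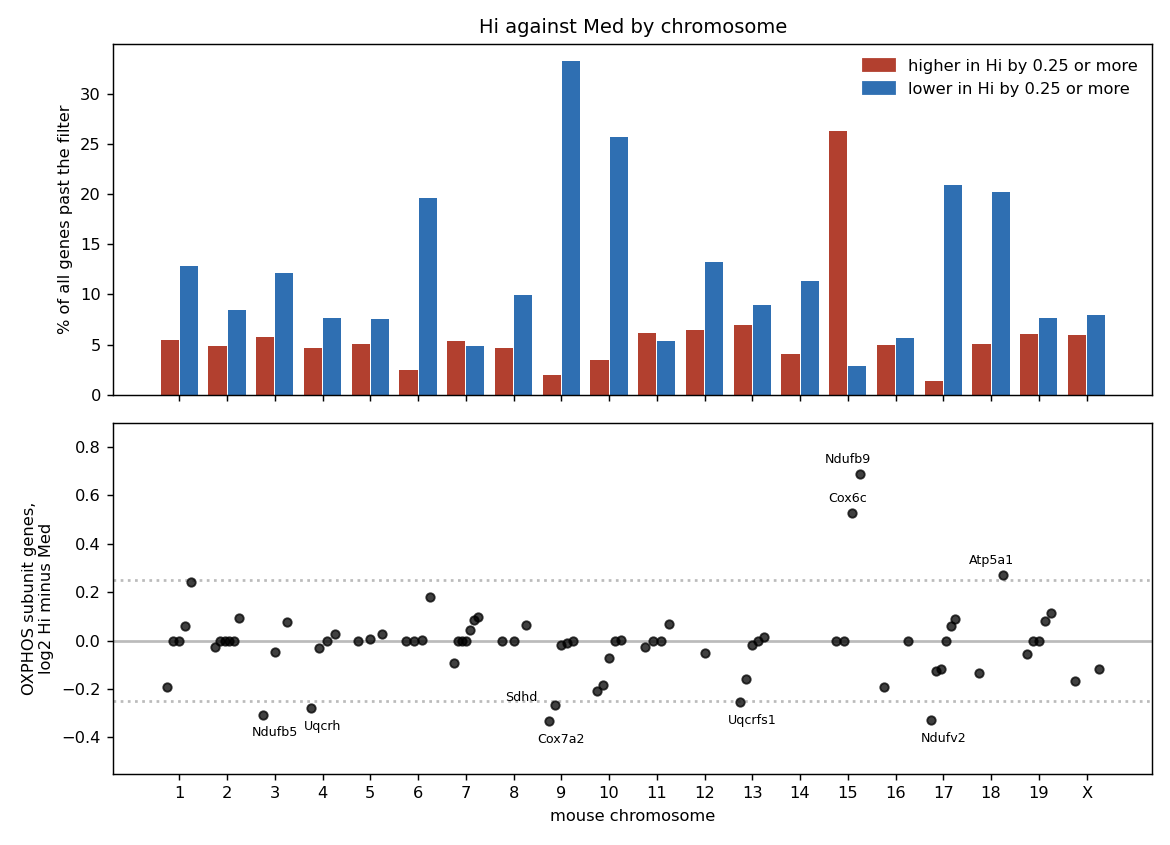
Upper panel: percentage of all genes past the filter on each mouse chromosome (horizontal axis) that were higher or lower in Hi than in Med by 0.25 or more on the log2 scale. Lower panel: log2 difference of Hi from Med for each OXPHOS subunit gene past the filter by chromosome, with genes 0.25 or more apart named, Ndufb9 and Cox6c on chromosome 15 being the highest.

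With graded levels of the cluster, the place of Med relative to the other columns was also recorded. Among the 76 members Med was strictly between in 20 (26.3%) and beyond Hi in 28 (36.8%), with Med identical to Hi in 21 (27.6%). Over all genes past the filter the shares were 16.9%, 33.2% and 35.4%. Ndufb9, Cox6c and Ndufa10 are examples of Med between, and Uqcrh, Ndufv2 and Cox7a2 of Med beyond Hi. Sdha, Sdhb and Sdhc had Med between, by steps from Med to Hi of 0.06 or less.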

How the data were processed

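The deposited table holds log2 expression values, 1 column per group, for 35556 probe sets. The tools named, without role, order or version, are GCRMA (background correction with normalization) and Affymetrix Expression Console, per the submitters' processing notes. No source used here states the authors' log base, and log2 was taken from the range of the values. Any pooling or averaging of subclones came before deposit, and the number of arrays limits the precision.

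Genes came from GEO's platform annotation (21789 probe sets with 1 gene, 1621 with several, 12146 with none), updated by gene number to RefSeq's GRCm38.p6 table (99.6% matched). Probe sets of several genes named none. Ndufb1, Ndufb4 and Cox7c had no single-gene probe set by name and are not analysed here. Probe sets were averaged per gene. A difference was called at a log2 difference of 1, and for Hi against Med also at 0.25. Values count as identical within 1e-09. Members, lists and markers were chosen with earlier results of these data known. Values in every column are given for the largest and smallest differences per complex, core, catalytic and isoform genes, the 6 highest and lowest in Hi against Med, members 2-fold lower, and up to 3 and 2 genes per list plus Ppargc1a, Tfam, Cycs, Cyc1 and Hif1a. Further genes, Slc25a4, Slc25a5, Nrf1, Gabpa, Gabpb1 and Yy1 among them, were named after their values were seen. Scaling (centring, quantile, loess), probe set summary, filter and membership were varied. Python 3.11.15, pandas 2.3.3 and statsmodels 0.14.6 were used, and scripts were tested on simulated data. No per-sample column was left unmapped (0).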

Additional observations from a re-analysis of the deposited data

How the results depend on the processing

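Each group has 1 sample, so no test, replicate error or left-out replicate was possible, and a difference is called here by being 2-fold or not. No paired analysis was possible because each group has a single sample. The counts of members 2-fold higher than Ctrl stayed within 1.5 times the reported ones under every alternative tried, from 34 to 53 of those past the filter. The share of all genes moved too, from 17.5% (Hi, no filter) to 49.2% (Med, 75th percentile filter). Under that stricter filter, 73.8% of members in Med and 72.1% in Hi were higher, beside 49.2% and 47.9% of all genes. Medians against Ctrl went under 2-fold in Med and Hi with quantile normalization (0.77 and 0.85), loess (0.90 and 0.97) and columns centred on genes past the filter (0.95 and 0.98). So did complex I with quantile (0.52 and 0.59), loess (0.68 and 0.72) and that centring (0.55 and 0.61), and in Hi with no filter (0.99). Complex II was at 0.79 and 0.71 with quantile and 0.92 and 0.85 with loess, complex III at 0.84 and 0.92 with quantile, and complex IV at 0.51 in both without a filter, where its 4 low isoforms enter. Members 2-fold lower than Ctrl (2 in the reported values) numbered 0 with columns centred on all probe sets and with the 75th percentile filter, 5 with quantile, and 1 with the filter on Med and Hi alone. In Hi, the shares of all genes lower were 4.17%, 2.53%, 16.6% and 5.54% in that order. Members lower in Hi than Med by 0.25 numbered 3 with quantile and 2 with columns centred on genes past the filter, beside 9.18% and 9.53% of all genes. Ndufv2 in Med turned sign with quantile (-0.060). The filter on Med and Hi alone, the centring on genes past the filter and the restriction to single probe sets were chosen after seeing the data. The cause of these shifts was not tested.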

Other observations

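Beyond the subunits, genes of the other mitochondrial lists on chromosomes 15 and 9 were compared between Hi and Med. The members described above are counted again here. On chromosome 15, 7 mitochondrial genes passed the filter (members, assembly factors, carriers and ribosomal proteins together), of which 5 were higher in Hi, 2 identical and none lower. By 0.25 or more 4 of the 7 were higher, where 26.3% of all genes on that chromosome were. At any size 22.8% of all genes past the filter were higher and 31.3% lower, and such shares were not computed per chromosome. The oxidase assembly factor Cox14 measured 8.60 (Med) and 9.32 (Hi), Mrpl13 at 8.83 and 9.33, and Cyc1 at 11.04 and 11.23. On chromosome 9, 14 such genes included 9 lower in Hi, 5 identical and none higher, but 5 were lower by 0.25 or more, where 33.3% of all genes on that chromosome were, and their median was -0.028. The complex I assembly factor Foxred1 measured 8.01 (Med) and 7.29 (Hi), the citrate cycle gene Idh3a at 9.66 and 9.11, and the pyruvate dehydrogenase gene Dlat at 10.30 and 9.77. These 2 chromosomes were chosen after their values were seen.

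Among the genes furthest apart between Med and Hi within their own list were also Mrps6 (9.19 and 9.67), Coq10b (7.65 and 7.13), Sqor (9.06 and 8.55), Tfb1m (9.64 and 9.25), Gabpb2 (8.85 and 8.66), Slc25a3, the phosphate carrier (12.36 and 12.14), and the cristae protein Chchd3 (10.995 and 10.78). Cox18 (-0.42), Cycs (-0.41) and Tmem126a (-0.39) differed by more than the last of these. None was 2-fold apart. Citrate cycle genes included 6 lower in Hi, and 9 identical, and none was higher, while 31.3% of all genes were lower and 22.8% higher.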
